A study of Mus musculus with 12 samples.

Results

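The circadian clock genes of the mouse retina examined here were 10 genes taken by symbol: the activator *Clock*, the repressors *Per1*, *Per2*, *Per3*, *Cry1*, *Cry2* and *Ciart*, the nuclear receptors *Nr1d1* and *Nr1d2*, and the output factor *Dbp*. All 10 were found among the 56748 entries of the scaled count table and the 55372 entries of the TPM (transcript abundance scaled for length and library total) table, and were followed over all 12 libraries. The rule that chose them uses symbols and no measured value.

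The libraries came from 2-month-old mice of 2 genotypes. *Abca4*Ko mice carried RiboTag and i75-Rod-Cre and lacked Abca4, a flippase of rod and cone outer segment discs that clears retinoid products of light. Control littermates carried RiboTag and i75-Rod-Cre with Abca4 intact, so both genotypes expressed the Cre and the tagged ribosomes. The rhodopsin promoter drives this Cre, and the HA tag it switches on marks the ribosomes of rods. From each genotype, 3 libraries were made from RNA bound to tagged ribosomes (translating ribosome affinity purification, here rod TRAP) and 3 from the lysate before purification (here retina). Mice were kept on a light and dark cycle, retinas were perfused with cycloheximide, and cDNA was made with a low-input kit. The labels give neither the hour of collection nor the sex, and they do not say how many retinas went into a library. P-values therefore measure the spread between these libraries, which may be partly technical.

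The clock is a feedback loop of transcription. CLOCK pairs with BMAL1, the product of *Arntl*, and binds E-box elements to switch on the *Per*, *Cry*, *Nr1d* and *Dbp* genes. PER and CRY proteins then block the pair, and the *Nr1d* products REV-ERBα and REV-ERBβ repress *Arntl*, so *Arntl* peaks at the opposite time of day from *Dbp* and *Nr1d1*. The retina holds a clock of its own, which sets dopamine release and the sensitivity to light over the day.

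Letter matches to elements of the loop were searched in the RefSeq promoters of its members, and binding was not measured. These windows run from 250 bases before to 50 bases after a transcript start on GRCm38.p6, and 9 of the 10 members matched at 12 starts. The motifs searched on both strands were the E-box CACGTG, its variant AACGTG or CACGTT, the D-box TTATGTAA or TTATGCAA (on the other strand TTACATAA or TTGCATAA), which *Dbp* and its relatives bind, and the receptor half-site AGGTCA or TGACCT. A match was kept where it overlapped a match of another motif. The 4 windows below are shown because they hold the E-boxes and D-boxes found among members, with every match in capitals. *Ciart* lies at chr3:95882179-95882478, minus strand, *Cry1* at chr10:85185005-85185304, minus strand, *Per1* at chr11:69098699-69098998, plus strand, and *Per3* at chr4:151044616-151044915, minus strand.
Ciart: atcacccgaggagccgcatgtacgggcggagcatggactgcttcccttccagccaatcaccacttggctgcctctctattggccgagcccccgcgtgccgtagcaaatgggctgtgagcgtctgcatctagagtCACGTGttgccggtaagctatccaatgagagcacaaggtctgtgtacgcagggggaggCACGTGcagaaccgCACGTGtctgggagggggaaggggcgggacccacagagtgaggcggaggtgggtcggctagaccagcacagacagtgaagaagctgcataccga
Cry1: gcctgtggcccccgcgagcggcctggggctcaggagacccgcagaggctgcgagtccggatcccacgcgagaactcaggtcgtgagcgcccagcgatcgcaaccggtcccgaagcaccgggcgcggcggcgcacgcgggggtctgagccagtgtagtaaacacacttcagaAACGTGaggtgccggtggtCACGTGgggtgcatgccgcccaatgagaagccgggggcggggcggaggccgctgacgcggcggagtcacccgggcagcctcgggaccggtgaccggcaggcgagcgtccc
Per1: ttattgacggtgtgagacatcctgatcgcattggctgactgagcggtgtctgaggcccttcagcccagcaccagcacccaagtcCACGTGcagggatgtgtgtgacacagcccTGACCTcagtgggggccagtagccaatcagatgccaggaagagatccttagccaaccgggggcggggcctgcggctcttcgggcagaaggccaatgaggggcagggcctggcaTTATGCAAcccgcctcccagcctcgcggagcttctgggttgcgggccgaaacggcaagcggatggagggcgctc
Per3: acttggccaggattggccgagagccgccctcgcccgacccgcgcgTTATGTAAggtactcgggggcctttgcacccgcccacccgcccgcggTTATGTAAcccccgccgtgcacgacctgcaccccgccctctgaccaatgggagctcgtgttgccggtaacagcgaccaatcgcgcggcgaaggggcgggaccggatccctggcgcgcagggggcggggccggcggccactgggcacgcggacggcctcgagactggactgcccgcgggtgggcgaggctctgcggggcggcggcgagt
*Ciart* held 3 E-boxes, which begin 116, 58 and 44 bases before the start. *Cry1* held 1 E-box 60 bases before its start and an E-box variant 79 bases before it. *Per1* held an E-box at 166 bases, a half-site at 137 bases and a D-box at 24 bases before its first start, and none of these motifs at its second listed start. *Per3* held 2 D-boxes, at 205 and 158 bases before the start. Outside these 4 windows, *Cry2* and *Nr1d1* each held 1 E-box variant and *Nr1d2* and *Clock* each held 1 half-site. The *Dbp* window held none of the searched letters. Over all 32851 promoters of the table, 7.15% hold the E-box, 4.68% its variant, 1.66% a D-box and 16.3% a half-site.

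In whole retina the clock genes were led by *Dbp* and *Nr1d1*, and in rod TRAP by *Nr1d1* and *Nr1d2*. Levels per transcript length (TPM, 3 libraries a group) placed *Dbp* first in control retina at 230 ± 49.6 TPM (SD, n = 3), followed by *Nr1d1* at 174 ± 38.2 TPM, and these neighbours overlapped. *Cry2* came next at 65.0 ± 14.2 TPM, below every *Nr1d1* library. *Per1*, *Cry1*, *Nr1d2*, *Ciart* and *Per3* then ran from 38.5 to 14.8 TPM, each overlapping the next. *Per2* and *Clock* were last, at 5.17 ± 1.93 and 4.40 ± 1.41 TPM, and they overlapped as well.

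The order was tighter in control rod TRAP. *Nr1d1* led at 95.3 ± 2.18 TPM (SD, n = 3), *Nr1d2* followed at 66.8 ± 2.11 TPM and *Cry1* at 43.0 ± 1.64 TPM, with no overlap between neighbours. *Dbp* at 30.7 ± 3.22 TPM and *Per1* at 27.7 ± 1.75 TPM overlapped. *Cry2*, *Clock*, *Per3*, *Ciart* and *Per2* ended the order, at 19.8, 16.8, 8.27, 2.47 and 1.23 TPM, each apart from the next. In *Abca4*Ko rod TRAP the order of the 10 means was the same, but *Cry2* and *Clock*, and *Ciart* and *Per2*, also overlapped. In *Abca4*Ko retina *Dbp* (173 ± 63.4 TPM) and *Nr1d1* (143 ± 50.3 TPM) again led and overlapped.

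**Figure D1:**
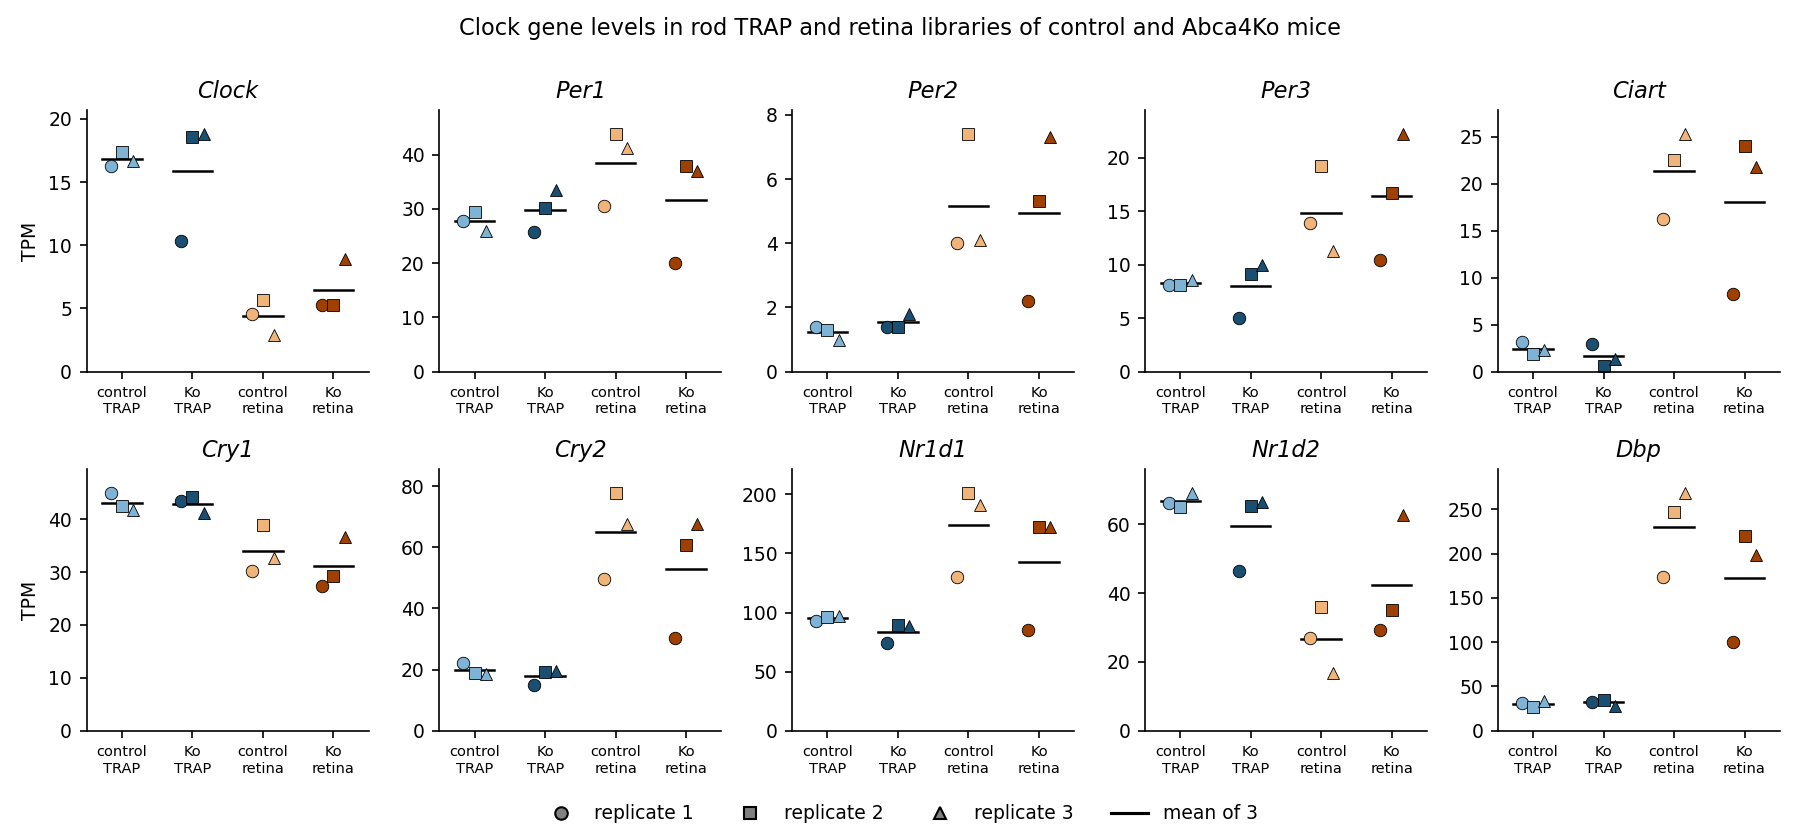
TPM of the 10 clock genes (vertical axis, linear from 0) in the 3 libraries of each of the 4 groups, with the replicate number as the marker shape and a line at the mean. *Dbp* reaches at most 35.2 TPM in rod TRAP and at least 100 TPM in retina, while *Clock* is higher in every rod TRAP library than in every retina library.

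Rod TRAP and retina held different amounts of nearly every clock gene. Of the 10 genes, 3 were higher in control rod TRAP (*Clock*, *Nr1d2*, *Cry1*) and 6 were lower (*Ciart*, *Dbp*, *Per2*, *Cry2*, *Nr1d1*, *Per3*) by limma at an adjusted p under 0.05, and *Per1* did not pass. Of all 16286 genes tested, 75.4% passed, so a count of 9 of 10 stands close to the background. The same 3 genes were higher and the same 6 lower in *Abca4*Ko, where 64.1% of 16036 genes passed. On the normalized scale the libraries of rod TRAP and retina did not overlap for 9 of 10 members in each genotype, beside 79.7% of all genes tested in control and 69.4% in *Abca4*Ko. The median log2 fold change of the 10 genes was -0.48 in control and -0.57 in *Abca4*Ko, beside -0.03 and 0.00 over all genes tested. These medians are of values without the correction for GC content and length given below. After it, 5 members were called higher and 4 lower in control, and 3 higher and 5 lower in *Abca4*Ko. The median over all genes was then 0.12 in control and 0.13 in *Abca4*Ko. Whether the members as a set differ from other genes was not tested. In bulk samples such as these, fewer cells of a type and less RNA per cell cannot be told apart. Rod TRAP holds ribosome-bound RNA and retina holds lysate RNA, so cell type and ribosome binding cannot be told apart either. Fold changes in the following paragraphs are of the scaled counts after a further normalization across libraries (log2 of CPM plus 0.5, where CPM is the count scaled to 1e+06 per library), and levels are in TPM.

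Cell type markers went with the labels of the fractions. All 10 rod markers were higher in rod TRAP than in retina and all 6 Müller glia, 6 amacrine and 6 ganglion cell markers were lower, in both genotypes. Summed rod markers ran from 196144 to 225021 TPM in rod TRAP and from 81030 to 108993 TPM in retina. The summed Müller glia, bipolar, amacrine and ganglion cell markers, here the inner retina markers, came to between 0.238% and 0.291% of the rod sum in rod TRAP. In retina they came to between 3.52% and 8.06%. Of the 6 bipolar markers, 2 were higher in rod TRAP.

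*Clock*, the DNA-binding activator of the loop, was present at 16.3, 17.4 and 16.7 TPM in control rod TRAP and at 10.3, 18.6 and 18.8 TPM in *Abca4*Ko rod TRAP. In retina it was present at 4.6, 5.7 and 2.9 TPM in control and at 5.3, 5.3 and 8.9 TPM in *Abca4*Ko. Every rod TRAP library stood above every retina library. The log2 fold change, rod TRAP over retina, was 2.14 ± 0.15 (SE, n = 3 against 3, limma adjusted p = 5.19e-08) in control and 1.44 ± 0.20 (adjusted p = 9.31e-05) in *Abca4*Ko. Its partner *Arntl* was also higher in rod TRAP, with 118 to 130 TPM in control rod TRAP and 44.8 to 63.4 TPM in control retina (log2 fold change 1.54 ± 0.12). *Npas2*, a relative of *Clock* that can take its place, was lower, at or under 1.6 TPM in rod TRAP and between 0.9 and 1.2 TPM in retina (-0.97 ± 0.23 in control). The control TPM ranges of *Npas2* overlapped, and with log2(TPM + 1) the call was lost (-0.33, adjusted p = 0.28).

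The *Per* genes, whose products carry the delayed repression, differed among themselves. *Per1* was present at 27.8, 29.4 and 25.9 TPM in control rod TRAP and 30.5, 43.8 and 41.2 TPM in control retina. In *Abca4*Ko it was present at 25.7, 30.1 and 33.4 TPM in rod TRAP and at 20.0, 37.9 and 36.9 TPM in retina. Its log2 fold change did not pass in control (-0.03 ± 0.12, adjusted p = 0.85) or in *Abca4*Ko (0.12 ± 0.18, adjusted p = 0.56), with 95% intervals from -0.29 to 0.24 and from -0.27 to 0.52. *Per2* was scarce in rod TRAP: 1.4, 1.3 and 1.0 TPM in control and 1.4, 1.4 and 1.8 TPM in *Abca4*Ko. Retina held 4.0, 7.4 and 4.1 TPM of *Per2* in control and 2.2, 5.3 and 7.3 TPM in *Abca4*Ko. Rod TRAP was lower by log2 fold changes of -1.62 ± 0.20 in control and -1.23 ± 0.27 in *Abca4*Ko (adjusted p = 9.79e-06 and 0.0023). *Per3* was present at 8.1, 8.1 and 8.6 TPM in control rod TRAP, at 5.0, 9.1 and 10.0 TPM in *Abca4*Ko rod TRAP, at 13.9, 19.2 and 11.3 TPM in control retina and at 10.4, 16.7 and 22.2 TPM in *Abca4*Ko retina. Its rod TRAP libraries all lay below its retina libraries, with log2 fold changes of -0.44 ± 0.15 and -0.70 ± 0.22 (adjusted p = 0.019 and 0.017). The *Per3* call was lost without control rod TRAP replicate 1 or 2 or control retina replicate 2 (adjusted p between 0.061 and 0.073), and without control retina replicate 3 the value was -0.71. In *Abca4*Ko it was lost without rod TRAP replicate 1, retina replicate 2, retina replicate 3 or replicate 3 in both fractions (adjusted p between 0.053 and 0.079).

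The *Cry* genes, partners of the PER proteins in repression, went in opposite directions. *Cry1* varied least of the members over rod TRAP in TPM, with 44.9, 42.4 and 41.8 TPM in control and 43.4, 44.2 and 41.1 TPM in *Abca4*Ko. Retina held 30.2, 38.9 and 32.6 TPM of *Cry1* in control and 27.4, 29.3 and 36.7 TPM in *Abca4*Ko, so rod TRAP was higher by log2 fold changes of 0.69 ± 0.11 and 0.72 ± 0.15. *Cry2* was present at 22.0, 18.9 and 18.5 TPM in control rod TRAP and 15.0, 19.2 and 19.6 TPM in *Abca4*Ko rod TRAP. Retina held 49.7, 77.7 and 67.6 TPM of *Cry2* in control and 30.4, 60.9 and 67.6 TPM in *Abca4*Ko. The log2 fold changes of *Cry2*, -1.37 ± 0.14 and -1.23 ± 0.18, passed in both genotypes, and no rod TRAP library reached a retina library.

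*Ciart*, a repressor of CLOCK and BMAL1 whose window above holds 3 E-boxes, had the most negative fold change of the members. Rod TRAP held 3.2, 1.9 and 2.3 TPM in control and 2.9, 0.6 and 1.4 TPM in *Abca4*Ko, from only 7 to 21 scaled counts a library. Retina held 16.3, 22.5 and 25.3 TPM in control and 8.3, 24.0 and 21.8 TPM in *Abca4*Ko. The log2 fold changes were -2.84 ± 0.22 and -3.10 ± 0.32.

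The *Nr1d* receptors also parted, but only without the correction for GC content and length given below. *Nr1d1* (REV-ERBα) was present at 92.9, 96.0 and 97.1 TPM in control rod TRAP and 130, 201 and 191 TPM in control retina. In *Abca4*Ko it was present at 73.9, 89.6 and 88.4 TPM in rod TRAP and 85.0, 172 and 172 TPM in retina. Rod TRAP was lower by log2 fold changes of -0.53 ± 0.14 in control and -0.45 ± 0.17 in *Abca4*Ko (adjusted p = 0.0047 and 0.044). In *Abca4*Ko the TPM ranges overlapped, and the call was lost without any 1 rod TRAP library, without retina replicate 2 or 3 and without replicate 3 in both fractions (adjusted p between 0.099 and 0.21), while without retina replicate 1 the value was -0.72. *Nr1d2* (REV-ERBβ) was present at 66.2, 65.0 and 69.1 TPM in control rod TRAP and at 27.0, 36.0 and 16.7 TPM in control retina. In *Abca4*Ko it was present at 46.4, 65.5 and 66.6 TPM in rod TRAP and 29.4, 35.1 and 62.8 TPM in retina, where the TPM of the groups overlapped. Its log2 fold changes were 1.87 ± 0.17 and 0.94 ± 0.19, higher in rod TRAP in both genotypes. After the correction both receptors were above 0. In control *Nr1d1* stood at 0.39 and *Nr1d2* at 0.62, and both passed. In *Abca4*Ko they stood at 0.24 and 0.20, and neither passed (limma adjusted p = 0.16 and 0.19).

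*Dbp*, the output factor that drives D-box genes, stood far lower in rod TRAP than in retina. Rod TRAP held 31.1, 27.3 and 33.7 TPM in control and 32.7, 35.2 and 28.4 TPM in *Abca4*Ko. Retina held 174, 247 and 268 TPM in control and 100, 219 and 198 TPM in *Abca4*Ko. By library number the rod TRAP level of *Dbp* was 0.18, 0.11 and 0.13 of the retina level in control and 0.33, 0.16 and 0.14 in *Abca4*Ko. The log2 fold changes were -2.56 ± 0.16 (adjusted p = 1.32e-08) and -2.17 ± 0.20 (adjusted p = 5.00e-06). Its relative *Tef* was lower too (-0.93 ± 0.11 in control), while *Nfil3*, which competes for D-boxes and represses them, did not pass (0.07 ± 0.15). *Nfil3* had no stable direction, since it passed at 0.75 in control after a correction for GC content and length and at -0.56 under the authors' scaling.

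**Figure D2:**
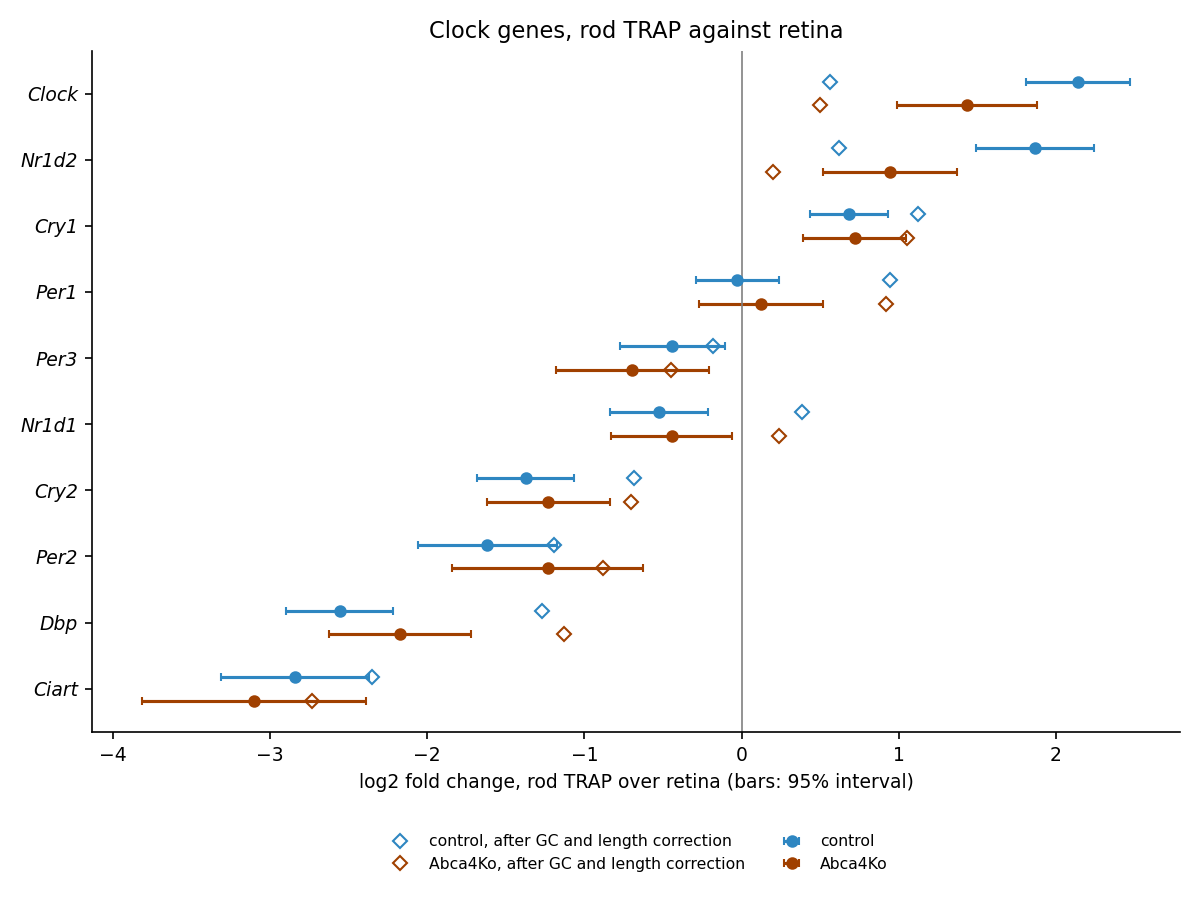
Log2 fold change of each clock gene, rod TRAP over retina (horizontal axis, filled points with 95% intervals), in control and *Abca4*Ko, with the values after a correction for transcript GC content and length as open diamonds. *Clock*, *Nr1d2* and *Cry1* lie to the right of 0 and *Ciart*, *Dbp*, *Per2* and *Cry2* to the left with and without the correction, while *Nr1d1* crosses 0 and *Per1* moves to 0.94 in control.

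Transcript composition moved with the fraction. Among 3797 genes with a GC content under 45% in their longest GENCODE transcript, the median log2 fold change of rod TRAP over retina was 1.13 in control. Among 3518 genes at 55% or more it was -0.70. The members span this range, with *Clock* at 40.9% and *Nr1d2* at 41.8% against *Nr1d1* at 56.8%, *Per1* at 59.4% and *Dbp* at 61.6%. After a correction for GC content and length, chosen after seeing the data, the control fold changes of *Clock* (0.56), *Nr1d2* (0.62), *Dbp* (-1.27) and *Cry2* (-0.68) were smaller but still passed. Those of *Cry1* (1.12) and *Per1* (0.94) were higher and passed, that of *Nr1d1* turned positive (0.39) and passed, and that of *Per3* (-0.18) did not. In *Abca4*Ko the correction also ended the call of *Nr1d2* (0.20, adjusted p = 0.19) and of *Nr1d1* (0.24, adjusted p = 0.16). The choice of scaling mattered as well: with the authors' scaling alone the median of all genes moved to -0.62 in control and -0.49 in *Abca4*Ko. The split of higher against lower calls then became 2 against 7 in control and 1 against 6 in *Abca4*Ko. With log2(TPM + 1) it was 3 against 7 and 2 against 6. *Cry1* kept its sign but lost its call under the authors' scaling in both genotypes (0.04 and 0.18), as did *Nr1d2* in *Abca4*Ko (0.41). *Per1* had no stable direction: in control it was lower and passed under the authors' scaling (-0.67, adjusted p = 3.87e-04) and with log2(TPM + 1) (-0.45, adjusted p = 0.031), but higher and passed after the correction, and in *Abca4*Ko it was -0.41 under the authors' scaling and did not pass, but 0.92 after the correction and passed. With log2(TPM + 1) *Nr1d2* in *Abca4*Ko did not pass either (0.54).

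The other clock genes were taken from lists of partners, repressors, receptors, kinases and outputs. Of 35 tested in control, 12 were higher in rod TRAP and 16 lower, close to the 75.4% of all genes that passed (5968 higher and 6317 lower of 16286). *Bhlhe41*, a repressor at E-boxes, was higher in rod TRAP (log2 fold change 0.71 ± 0.11 in control and 0.59 ± 0.14 in *Abca4*Ko). That call was lost in both genotypes under the authors' scaling (0.07 and 0.05) and with log2(TPM + 1) (0.37 and 0.45). Its relative *Bhlhe40* was lower (-4.84), with 0.6 to 0.8 TPM in control rod TRAP and 30.4 to 38.0 TPM in control retina. The receptors *Rora* and *Rorb*, which activate *Arntl* through the same sites that REV-ERB occupies, were higher (3.41 and 2.67). *Bhlhe40*, *Rora* and *Rorb* were singled out here after their values were seen.

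No clock gene differed between *Abca4*Ko and control past the threshold in either fraction. In rod TRAP 0 of 10 members passed with limma at an adjusted p under 0.05, and 0 of 10 had an unadjusted p under 0.05, while 148 of 13104 genes tested (1.13%) passed. In retina 0 of 10 passed, beside 18 of 16964 genes (0.106%). At an unadjusted p under 0.05 there were 2 of 10 members in retina, while 12% of all genes tested there and 10.4% of those in rod TRAP had such a p. The median log2 fold change of the members was -0.06 in rod TRAP and -0.17 in retina, beside 0.00 and -0.02 over all genes tested. *Abca4* itself fell to 2.9 and 6.3 TPM in *Abca4*Ko rod TRAP replicates 1 and 2, from 877 to 992 TPM in control, but the library labelled *Abca4*Ko replicate 3 held 216 TPM in rod TRAP and 129 TPM in retina. That is 23.5% and 24.3% of the control mean. With that library included, *Abca4* itself did not pass in rod TRAP (log2 fold change -5.79 ± 1.81, limma adjusted p = 0.41) or in retina (-5.60 ± 1.59, adjusted p = 0.40). A gene without a call can therefore still differ by a large amount. Without that replicate, 0 of 10 clock genes passed in either fraction.

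In rod TRAP the intervals were narrow for most members. Setting aside *Ciart* and *Per2*, the 95% intervals of the log2 fold change, *Abca4*Ko over control, lay between -0.40 and 0.62. *Nr1d1* was at -0.13 ± 0.08 (SE, limma adjusted p = 0.60) and *Nr1d2* at -0.13 ± 0.09. *Dbp* was at 0.28 ± 0.15 (adjusted p = 0.57), with control and *Abca4*Ko libraries interleaved in TPM. It was 0.45 without *Abca4*Ko replicate 3, 0.17 without *Abca4*Ko replicate 1 and 0.06 with log2(TPM + 1). The scarce *Ciart* and *Per2* had the values farthest from 0, -0.48 (interval -1.01 to 0.04) and 0.35 (-0.05 to 0.74). *Nr1d1* and *Ciart* libraries of *Abca4*Ko lay below all control libraries on the normalized scale, 2 of 10 members, while 17.6% of all genes tested had groups that did not overlap. *Arntl*, the gene that REV-ERB represses, was at -0.15 ± 0.09 (adjusted p = 0.60).

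In retina the members with low GC content stood apart from the rest. *Nr1d2* (0.68 ± 0.24, interval 0.14 to 1.22) and *Clock* (0.55 ± 0.21, interval 0.09 to 1.01) were higher in every *Abca4*Ko library than in every control library on the normalized scale, and both had a limma adjusted p of 0.40. On this measure 19.9% of all genes tested had groups that did not overlap. Of the other 8 members, with GC contents between 51.6% and 61.6%, none had an unadjusted p under 0.05. *Ciart* (-0.36), *Cry2* (-0.34), *Nr1d1* (-0.32), *Per1* (-0.22), *Dbp* (-0.21), *Per2* (-0.14) and *Cry1* (-0.08) had values below 0 and *Per3* (0.06) above it. Over all tested genes under 45% GC the median log2 fold change in retina was 0.40, and over those at 55% or more it was -0.23. After the GC and length correction *Clock* stood at 0.03 and *Nr1d2* at 0.29 (adjusted p = 0.63). Without control retina replicate 3, the library with the lowest *Clock* and *Nr1d2*, the uncorrected values were 0.38 and 0.46. The part of GC content in these values was not tested beyond the correction.

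**Figure D3:**
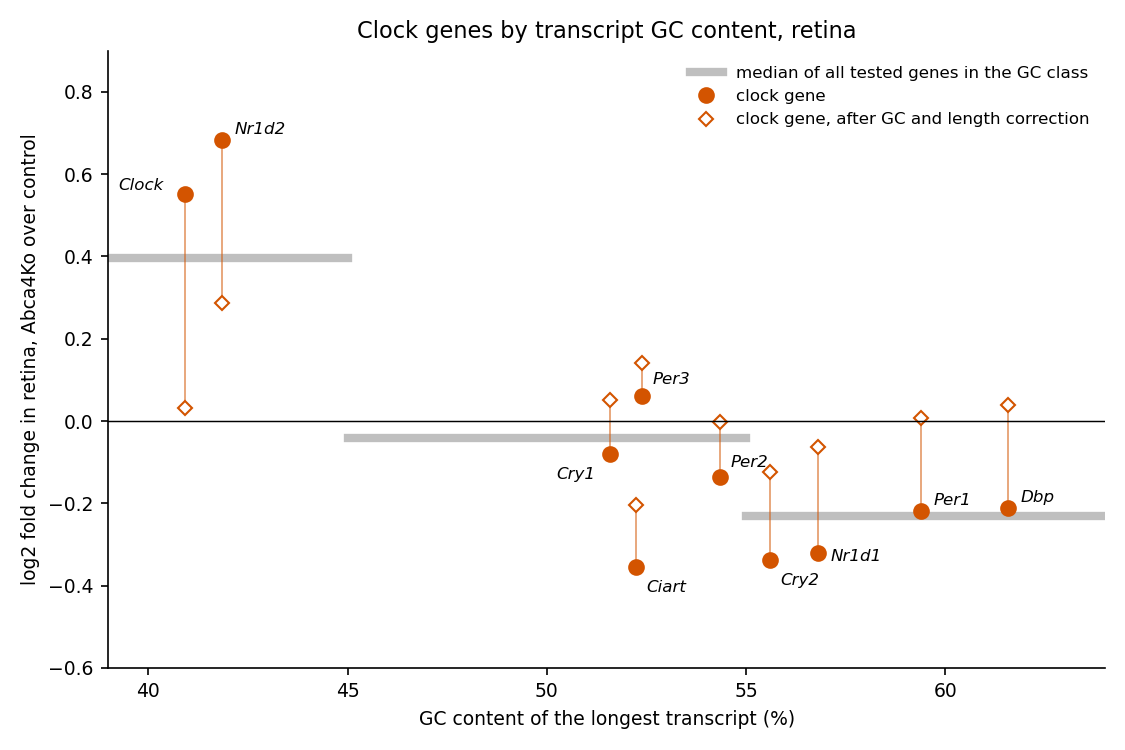
Log2 fold change in retina, *Abca4*Ko over control (vertical axis), of each clock gene against the GC content of its longest transcript (horizontal axis, %), before (filled) and after (open) correction for GC content and length. Grey bars mark the median of all tested genes in 3 GC classes, and *Clock* and *Nr1d2*, near 41% GC, drop from 0.55 and 0.68 to 0.03 and 0.29.

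Whether the genotype difference itself changed with the fraction was tested as an interaction over all 12 libraries. None of the 10 members passed with limma, while 1 of 17273 genes (0.00579%) passed. An unadjusted p under 0.05 was found for 2 of 10 members and for 11.3% of all genes tested. The largest values were those of *Nr1d2* (-0.83 ± 0.28, adjusted p = 0.41) and *Clock* (-0.62 ± 0.27, adjusted p = 0.42). *Dbp* stood at 0.47 ± 0.27 (adjusted p = 0.52). After the GC and length correction *Nr1d2* stood at -0.44 and *Clock* at -0.06.

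**Figure D4:**
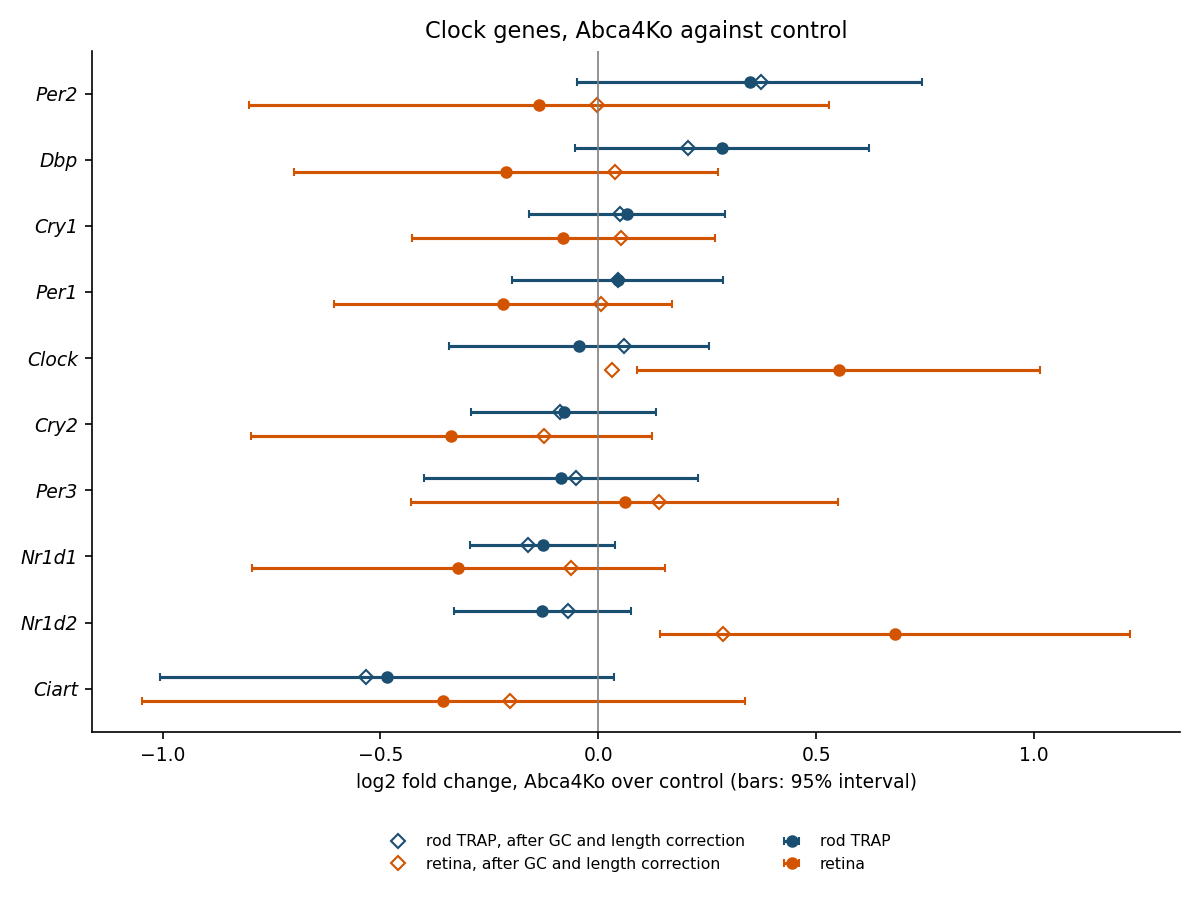
Log2 fold change of each clock gene, *Abca4*Ko over control (horizontal axis), in rod TRAP and in retina, with 95% intervals on the filled points and values after GC and length correction as open diamonds. All 10 rod TRAP intervals cross 0, and in retina only the intervals of *Clock* and *Nr1d2* do not, before correction and before adjustment for the number of genes.

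The wider clock lists held no call by genotype either. Of 28 other clock genes tested in rod TRAP and 35 in retina, 0 passed by limma in each, with 2 and 5 at an unadjusted p under 0.05, close to the 10.4% and 12% of all genes tested. In rod TRAP these were *Rora* (-0.21) and *Drd4* (0.28), a dopamine receptor of photoreceptors whose transcript cycles, at 254, 283 and 266 TPM in *Abca4*Ko and 212, 233 and 252 TPM in control. In retina they included *Rora*, *Rorb*, *Gsk3b* and *Vip*, with log2 fold changes of 0.50 to 0.78. *Tef* stood at -0.33 ± 0.18 in retina and -0.04 ± 0.08 in rod TRAP, *Nfil3* at -0.25 and -0.10, and *Bhlhe41* at -0.02 and -0.03. *Arntl* stood at 0.11 ± 0.17 and *Npas2* at -0.05 ± 0.27 in retina. The melatonin enzyme gene *Aanat* was listed at 0 to 0.2 TPM in all libraries.

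Because *Dbp* and *Nr1d1* rise when *Arntl* falls over the day, each library could be given a day index. It is the mean log2 level of *Dbp*, *Nr1d1*, *Nr1d2*, *Per3*, *Ciart* and *Tef* minus that of *Arntl*, *Npas2*, *Nfil3* and *Cry1*. In rod TRAP it was 0.64, 0.82 and 0.68 in control and 0.53, 0.80 and 0.93 in *Abca4*Ko. The means were 0.71 ± 0.10 and 0.75 ± 0.21 (SD, n = 3), a difference of 0.04. In retina it was 1.84, 2.04 and 1.98 in control and 1.57, 2.09 and 2.15 in *Abca4*Ko. The means were 1.95 ± 0.10 and 1.94 ± 0.32, a difference of -0.01. Both differences were smaller than the spread within genotypes, 0.16 in rod TRAP and 0.24 in retina (pooled SD). With *Dbp* minus *Arntl* alone the difference was 0.44 in rod TRAP and -0.33 in retina. The TPM ratio of *Dbp* to *Arntl* separated the genotypes in rod TRAP, narrowly. By library number the *Abca4*Ko ratios there were 0.325, 0.304, 0.270, beside control ratios of 0.264, 0.212, 0.259. Retina ratios overlapped, with 1.87, 3.88, 3.28 for *Abca4*Ko beside 3.28, 3.89, 5.98 for control. Whether this ratio differed by genotype was not tested. The full index has no clock hours attached here, since no library has a labelled hour. No test was run on the full index. A shift smaller than its pooled SD could not be seen, and with n = 3 a larger shift could also be missed.

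The full index, unlike the *Dbp* to *Arntl* ratio in rod TRAP, did not place the libraries by genotype. It gave nearly the same order in both fractions. *Abca4*Ko replicate 1 was lowest in rod TRAP and in retina, control replicate 1 was next, and control replicate 3 followed. *Abca4*Ko replicate 3 was highest in both. *Abca4*Ko replicate 2 and control replicate 2, which stood next to each other, changed places. In rod TRAP this order rests in part on *Npas2*, which had only 4 to 17 scaled counts a library. On the normalized scale *Npas2* stood at 0.72 log2 units from the rod TRAP median in control replicate 3 and at -0.41 in *Abca4*Ko replicate 3. With the GC and length correction *Abca4*Ko replicate 1 and control replicate 1 were again the lowest in both fractions, but the rest of the order was not shared. The corrected index of rod TRAP also lacked *Npas2*, so 3 genes were subtracted there and 4 in retina. Which part of the new order came from the correction and which from the missing gene was not tested. In rod TRAP control replicate 3 then stood highest (-0.605, beside -0.608 in *Abca4*Ko replicate 3), while in retina it stayed behind *Abca4*Ko replicates 2 and 3 and control replicate 2.

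A single retina library stood low for most of the clock genes. *Abca4*Ko retina replicate 1 was the lowest of the 6 retina libraries in TPM for 8 of 10 members, among them *Dbp* at 48.1% of the median of the 6 libraries, *Nr1d1* at 49.4%, *Cry2* at 47.3%, *Per2* at 46.8% and *Ciart* at 37.5%. This library was the lowest for 51.8% of all tested genes in TPM. On the normalized scale it was lowest for 6 of 10 members and 27% of all genes, with *Arntl* at 0.34 and *Clock* at 0.38 log2 units above the median of the 6 libraries. The rod TRAP library of the same number was lowest in TPM for 6 of 10 members, beside 55% of all tested genes, but its *Dbp* level was at 103% of the rod TRAP median. Without this retina library the genotype fold changes of *Nr1d1* and *Dbp* in retina went from -0.32 and -0.21 to -0.13 and -0.03.

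The 2 retina libraries with the lowest index also had the lowest inner retina marker share, and values by GC content are given beside them. The inner retina markers summed to 3.52% of the rod markers in *Abca4*Ko retina replicate 1 and to 4.76% in control retina replicate 1, against 6.43% to 8.06% in the other 4 retina libraries. Müller glia markers ran at 2704 TPM in *Abca4*Ko retina replicate 1, beside 3076.5 to 5049 TPM elsewhere, amacrine markers at 231 TPM beside 352 to 602 TPM, and vascular markers at 7.6 TPM beside 46.1 to 100 TPM. Its rod marker sum was the highest of the retina libraries. Genes at 55% GC or more stood at a median of -0.20 log2 units from the median of the 6 libraries there. They stood at -0.17 in *Abca4*Ko retina replicate 3, which had the highest index, and at 0.25 in control retina replicate 3, where *Dbp* and *Ciart* were highest. On the GC and length corrected scale the library stood at -0.34 for *Dbp*, -0.38 for *Nr1d1* and -0.99 for *Ciart*, beside -0.40, -0.53 and -0.90 before correction. Lens markers did not follow the index, at 18.3 TPM in *Abca4*Ko retina replicate 1, 25864 TPM in control retina replicate 1, and 8632 and 12791 TPM in *Abca4*Ko retina replicates 2 and 3. The part of the cell mixture, of GC content and of the hour of collection in these values was not tested.

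**Figure D5:**
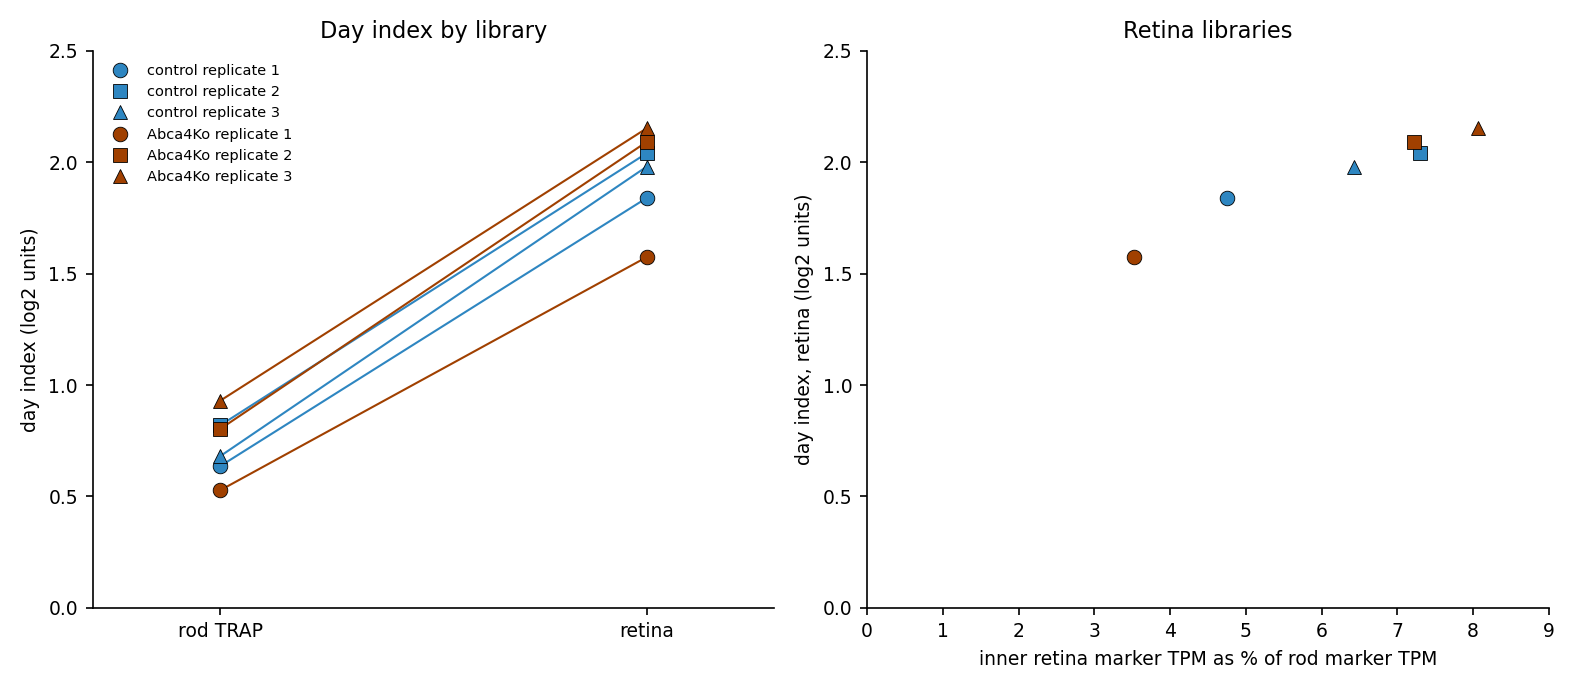
Left, day index (log2 units) of every library in rod TRAP and retina, with lines joining libraries of the same genotype and number. Right, retina day index against the inner retina marker sum as a percentage of the rod marker sum, where *Abca4*Ko replicate 1 (3.52%, index 1.57) and control replicate 1 (4.76%, index 1.84) lie lowest on both axes.

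Spread between libraries in TPM was wider in retina than in rod TRAP for 9 of the 10 members. The share over all genes was not computed, so this count is not read as a trait of clock genes. Retina libraries also differed more at large. For all tested genes under 45% GC, library medians ran from -0.46 to 0.25 log2 units from the fraction median in retina. In rod TRAP they ran from -0.14 to 0.02. Over the 6 libraries of both genotypes the highest level of *Nr1d2* was 3.76 times the lowest in retina and 1.49 times in rod TRAP, and for *Dbp* these ratios were 2.67 and 1.29. *Cry1* varied least, with ratios of 1.42 and 1.09. *Ciart*, with few counts in rod TRAP, was the exception, with ratios of 3.05 and 5.33. On the normalized scale *Ciart* also spread more in retina (1.38 log2 units from lowest to highest) than in rod TRAP (1.01), and *Nr1d1* (0.25) rather than *Cry1* (0.28) spread least in rod TRAP.

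The pattern of *Dbp* within groups was shared with many genes. Over the 12 libraries, after taking out the 4 group means, the genes most like *Dbp* of 10367 with a mean of at least 5 TPM were *Itgb5*, *Atp13a2*, *Chmp1a*, *Galns* and *Ltbp3*, each with a Pearson r of 0.97. Among clock genes *Nr1d1* ranked 175 (r = 0.91), *Cry2* 689 (0.85), *Per1* 914 (0.82), *Tef* 1391 (0.78) and *Ciart* 1986 (0.72). *Clock* ranked 7784 (r = 0.05), *Arntl* 6975 (0.16) and *Nr1d2* 6386 (0.23). The 12 points share fractions and libraries of the same number, and *Abca4*Ko retina replicate 1 was the lowest retina library for all 5 of the most similar genes.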

How the data were processed

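RNA from rod TRAP and retina lysate was sequenced from *Abca4*Ko and control mice, 3 libraries in each of 4 groups. Per the submitters' processing notes, CASAVA 1.8.2, HISAT2, edgeR and DESeq2 were used with GRCm39. The authors deposited gene counts scaled to a common total within each fraction and rounded, treated here as score values, and a table of TPM computed by the authors. Because the scaled counts are no longer raw, their sequencing depth is unknown and no count model was applied. The scaled totals lay between 17096515 and 17862326 a library, and 12866 to 16987 entries reached 10.

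Scaled counts were normalized by a trimmed mean of M values (trims 0.3 and 0.05), and log2(CPM + 0.5) was tested with limma 3.58.1 (trend, robust, R 4.3.3) over genes with at least 10 in 3 libraries of the comparison. P-values were two-sided and adjusted by Benjamini-Hochberg over all genes tested, with a threshold of 0.05. Each comparison used its own 6 libraries and the interaction all 12, so the comparisons share libraries. The fits were tested on simulated data: 95 of 100 genes changed 2-fold were recovered for the genotype in rod TRAP (13112 genes) and 90 of 100 in retina (16908 genes). The simulated libraries had the same dispersion for every gene and no shift between libraries in GC content or cell mixture. These shares hold for the simulation, and recovery in the real libraries, which spread more widely in retina, was not tested. The members, lists and tests were chosen with earlier results of these data known. Named were all 10 members, *Abca4*, listed clock genes past the threshold in a genotype comparison, *Arntl*, *Npas2*, *Nfil3*, *Tef*, *Bhlhe41* and the 5 genes most correlated with *Dbp*. No listed clock gene passed by genotype. *Bhlhe40*, *Rora*, *Rorb*, *Drd4*, *Gsk3b*, *Vip* and *Aanat* were named after their values were seen. Values of 1 listed gene are not reported here. The GC and length correction (lowess, span 0.3, longest GENCODE M21 transcript) was added after seeing the data and covered 16477 of 17273 genes. Alternatives were other scalings, no filter, a pseudocount of 2, log2(TPM + 1), limma without robust, the replicate block and leaving out each library.

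Deviations of rod TRAP and retina libraries with the same number correlated at 0.206 to 0.433 in *Abca4*Ko and 0.160 to 0.275 in control. With different numbers they ran from -0.457 to 0.229 in *Abca4*Ko and from -0.162 to -0.0077 in control. In *Abca4*Ko, rod TRAP replicate 2 correlated more with retina replicate 3 (0.229) than with retina replicate 2 (0.206). The numbers were therefore taken to pair the fractions, less clearly for that library. The main fits did not include this pairing, which the replicate block added. Between genotypes the numbers were only names. Python 3.11.15 was used for the remaining steps.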

Additional observations from a re-analysis of the deposited data

How the results depend on the processing

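The counts of clock genes past the threshold were 0 by genotype in either fraction and 0 for the interaction under every alternative run. With the replicate block they stayed at 9 in control and 9 in *Abca4*Ko for rod TRAP against retina and at 0 elsewhere, while calls over all genes in retina by genotype went from 18 to 46. Over all alternatives of rod TRAP against retina the control count lay between 8 and 10, and the *Abca4*Ko count between 7 (as under the authors' scaling) and 9, and the split in control went from 3 higher and 6 lower to 5 and 4 after the GC and length correction. The day index depended on its genes: with *Dbp* minus *Arntl* alone, *Abca4*Ko minus control was 0.44 for rod TRAP and -0.33 for retina libraries. The pooled SD of the full index does not measure the spread of this pair, and the cause was not tested. Over single genes, 27 values lost and 8 gained their call without a change of sign. The values below are log2 fold changes that changed sign, and for these the cause was not tested either. Depth before scaling is unknown, and *Ciart* and *Npas2* rest on few counts in rod TRAP.

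After the GC and length correction the genotype difference became 0.059 for *Clock* and 0.014 for *Bhlhe41* in rod TRAP, and 0.0073 for *Per1*, 0.051 for *Cry1*, 0.038 for *Dbp* and 0.077 for *Npas2* in retina. Rod TRAP against retina became 0.94 for *Per1* and 0.39 for *Nr1d1* in control and 0.24 for *Nr1d1* in *Abca4*Ko, and the interaction became -0.022 for *Cry1*, -0.10 for *Nr1d1*, -0.11 for *Nfil3* and 0.13 for *Bhlhe41*, each the same with the replicate block added. With the authors' scaling rod TRAP against retina was -0.56 for *Nfil3* in control, and -0.41 for both *Nfil3* and *Per1* in *Abca4*Ko. With median of ratios it was -0.039 for *Nfil3* in control. With log2(TPM + 1) it was -0.21 for *Nfil3* in control, -0.15 for *Nfil3* and -0.039 for *Per1* in *Abca4*Ko, while *Cry1* by genotype in rod TRAP was -0.0044 and the *Bhlhe41* interaction 0.086. With a pseudocount of 2 the *Ciart* interaction was 0.043, and without *Abca4*Ko replicate 1 in both fractions those of *Nr1d1* and *Bhlhe41* were -0.023 and 0.0057. Leaving out 1 library at a time changed the sign in at least 1 fit for the following values, given as lowest to highest. By genotype in rod TRAP these were *Clock* from -0.16 to 0.14, *Per1* from -0.056 to 0.16, *Per3* from -0.18 to 0.092, *Cry1* from -0.040 to 0.14 and *Bhlhe41* from -0.093 to 0.033. By genotype in retina they were *Per2* from -0.37 to 0.20, *Per3* from -0.13 to 0.23, *Cry1* from -0.14 to 0.0014, *Ciart* from -0.61 to 0.00089, *Arntl* from -0.0086 to 0.19, *Npas2* from -0.21 to 0.22 and *Bhlhe41* from -0.075 to 0.0090. For rod TRAP against retina they were, in control, *Per1* from -0.093 to 0.010 and *Nfil3* from -0.036 to 0.13. In *Abca4*Ko, rod TRAP against retina ran for *Per1* from -0.094 to 0.27. For the interaction they were *Per3* from -0.37 to 0.037, *Nr1d1* from -0.051 to 0.31, *Ciart* from -0.56 to 0.074 and *Bhlhe41* from -0.11 to 0.061.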
